A study of Rattus norvegicus with 6 samples.

Results

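The genes described here encode the SR proteins and the heterogeneous nuclear ribonucleoproteins (hnRNPs), the best known families of proteins that decide which exons of a pre-mRNA are kept. Members were the protein-coding genes of the deposited count table with a symbol of Srsf and a number, or a symbol starting with Hnrnp. This gave 31 of 34156 listed genes, made up of 12 SR genes and 19 hnRNP genes. The measurements were poly(A)-selected RNA-seq counts from 6 libraries of rat fibroblast-like synoviocytes (RA-FLS), the lining cells of the joint, here a purchased line labelled as rheumatoid arthritis and wild type. In the TNF-α group, 3 libraries came from cells given 10 ng/mL TNF-α, the inflammatory cytokine used to model arthritis in culture. In the TNF-α+EMO group, 3 libraries came from cells given the same 10 ng/mL TNF-α together with 80 μmol/L emodin (EMO), an anthraquinone of rhubarb. No library without TNF-α was part of the comparison, so each difference is between the libraries labelled TNF-α+EMO and those labelled TNF-α. The labels give day 5 for every sample, while the study's methods describe a shorter incubation, so the length of treatment is uncertain.

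SR proteins carry an RNA-recognition motif and a tail rich in arginine and serine. They bind enhancer sequences in exons and help the spliceosome, the machine that removes introns, to find the neighbouring splice sites. The tail is phosphorylated by the SRPK and CLK kinases, which controls where the proteins sit in the nucleus and when they act. The hnRNPs coat nascent RNA and often work the other way, by covering silencer sequences so that an exon is skipped. Many also act later, on export, localisation and decay of the mRNA. Genes of both families are known to limit their own expression through exons that bring in an early stop codon, and a count per gene does not separate such transcripts from the coding ones.

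The libraries held 16813322 to 17794455 counts, a depth at which 30 of the 31 members passed the filter of at least 10 counts in at least 3 libraries. The exception was Srsf8, a close relative of Srsf2, which had 0 counts in all 6 libraries. The groups differed in much besides the splicing genes. Of the 13614 genes tested, 80.9% differed between the groups at an adjusted p below 0.05. Of 12 listed fibroblast markers 8 were tested, with 7 lower with EMO and 1 higher. Dcn, the 1 that rose, had 0, 4 and 1 counts with TNF-α and 33, 24 and 26 with EMO (log2 fold change 4.02). The summed level of the list per kilobase ran from 57379 to 61062 with TNF-α alone and from 17425 to 18827 with EMO. Most of the markers fell by more than the sum, with a median log2 fold change of -5.55. Col3a1, a fibrillar collagen, went from a mean of 11635 to 26.7 normalized counts, the growth factor receptor gene Pdgfra from 20844 to 216 and the synovial cadherin gene Cdh11 from 2968 to 40.3, whereas Vim had a log2 fold change of -0.92. Lum, which encodes the matrix proteoglycan lumican, had 235, 263 and 244 counts with TNF-α and 0 in each library with EMO. Mitochondrial mRNAs took 3.33% to 3.55% of the counts with TNF-α and 0.191% to 0.214% with EMO. Apart from a fit without mitochondrial genes, the part of either in the results below was not tested. Whether both groups hold the same cells could not be checked from the counts. The macrophage markers Adgre1, Cd163 and Ptprc had at most 3 counts in every library, and the macrophage list summed to 744 to 800 per kilobase with TNF-α and 491 to 531 with EMO. Of its 3 tested genes, Cd14 was lower with EMO (log2 fold change -1.10), while Cd68 was higher (0.75) and Itgam went from 1, 0 and 0 counts to 12, 10 and 14. Of 5 endothelial markers, 1 was tested, and its list summed to 9.62 to 11.5 per kilobase with TNF-α and 2.96 to 4.01 with EMO. Among 6 epithelial markers, Epcam, Krt18 and Krt5 had at most 3 counts everywhere, and Krt8 was tested, with a list sum of 5098 to 5542 per kilobase with TNF-α and 1009 to 1182 with EMO.

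With EMO, the SR genes were mostly lower and the hnRNP genes were more mixed. All 11 tested SR genes passed the test, 9 of them lower (81.8%) and 2 higher. Among the 19 hnRNP genes 13 passed (68.4%), 10 of them lower (52.6%) and 3 higher. For comparison, 41.4% of all genes tested were lower with EMO and 39.4% were higher. The median log2 fold change, TNF-α+EMO over TNF-α, was -0.69 for the SR genes (interquartile range -0.97 to -0.40), -0.19 for the hnRNP genes (-0.54 to 0.09) and -0.01 for all genes tested (-1.21 to 0.80). Pooled over both families, the changes were also small for these libraries. The median size of the log2 fold change was 0.48 over the 30 members and 0.96 over all genes, and 6 of 30 members (20%) differed by more than 2-fold with an adjusted p below 0.05, against 47.3% of all genes. All 6 were lower with EMO, where the share of all genes was 27.8% for lower and 19.5% for higher. By family these were 3 of 11 SR genes (27.3%) and 3 of 19 hnRNP genes (15.8%). The median size of the log2 fold change was 0.69 for SR and 0.38 for hnRNP. The libraries of the groups did not overlap for 24 of 30 members, 19 lower and 5 higher (80%), nor for 82.9% of all genes tested, 42.5% lower and 40.3% higher. In bulk libraries, fewer cells of a type and less RNA per cell cannot be told apart, and this holds for every value given here.

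**Figure D1:**
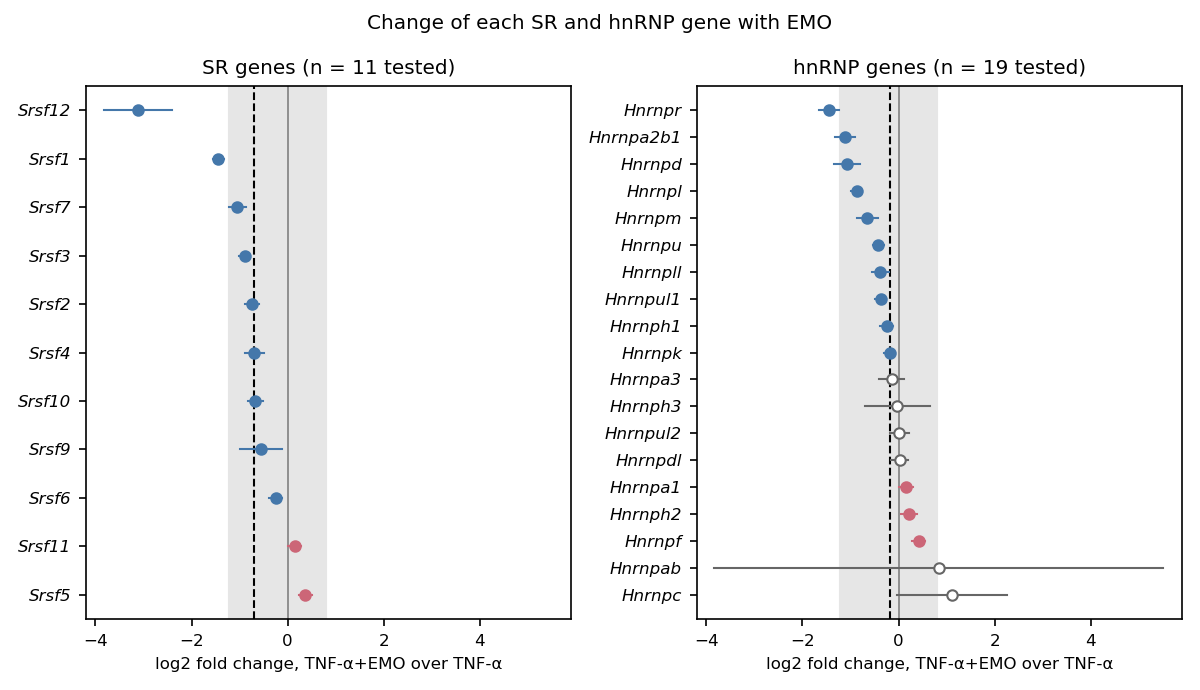
Log2 fold change (x axis, TNF-α+EMO over TNF-α) of the 11 tested SR genes (left) and the 19 hnRNP genes (right), with 95% confidence intervals from edgeR. Blue points passed the test and were lower with EMO, red points passed and were higher, open points did not pass, the dashed line is the family median (-0.69 and -0.19) and the grey band is the interquartile range of all genes tested (-1.21 to 0.80).

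Among the SR genes, Srsf12, Srsf1 and Srsf7 had the lowest fold changes. Srsf1 (ENSRNOG00000050323, Rnor_6.0 chr10:75335146-75341197, plus strand) encodes the prototype of the family, needed for constitutive splicing and for the choice between alternative splice sites. Its normalized counts were 5955, 6121 and 6162 with TNF-α alone (replicates 1 to 3, as in each list of values here) and 2166, 2278 and 2283 with EMO. The groups lay far apart and each was tight. The level fell by 1.44 on the log2 scale with EMO (SE 0.06, adjusted p = 1.3e-09), which is 2.71-fold. Srsf7 (chr6:2880518-2886465), whose protein joins splicing to mRNA export, had 1678, 1731 and 1663 normalized counts with TNF-α and 730, 844 and 884 with EMO. Every EMO library was below every TNF-α library, and the log2 fold change was -1.04 (SE 0.08, adjusted p = 3.5e-07). Srsf12, an atypical member described as a splicing repressor, was the least abundant of those tested, with raw counts of 55, 48 and 45 in the TNF-α group and 5, 5 and 6 in the TNF-α+EMO group. Its log2 fold change was -3.11 (SE 0.32, adjusted p = 4.0e-06), the largest of any member, on the fewest counts.

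The middle of the SR family fell by less. Srsf2, a nuclear speckle protein also known as SC35, was the most abundant SR gene per length with TNF-α, with normalized counts of 7376, 6781 and 6849. With EMO it had 3969, 4029 and 4544, again without overlap, and its log2 fold change was -0.74 (SE 0.07, adjusted p = 1.8e-06). Srsf3, the smallest SR protein and a partner of Srsf7 in mRNA export, went from 5063 ± 57.9 to 2723 ± 55.9 normalized counts (mean ± SD, n = 3 each), and its log2 fold change was -0.89. Srsf4 and Srsf10, the second of which turns into a repressor when dephosphorylated, had log2 fold changes of -0.69 and -0.67. Srsf9, the closest relative of Srsf1, was lower by 0.55 on the log2 scale (SE 0.19, adjusted p = 0.027). Its EMO libraries were not alike, with 357 and 367 normalized counts in replicates 1 and 2 and 603 in replicate 3, just under the lowest TNF-α library at 631. Srsf9 no longer passed when either of the EMO replicates 1 or 2 was left out (adjusted p = 0.088 and 0.073), nor when TNF-α replicate 1 or 2 was (0.071 and 0.057). With no filter on low counts Srsf9 did not pass either (adjusted p = 0.061).

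Srsf6, which shares with Srsf4 and Srsf5 a layout of paired RNA-recognition motifs, had 3374, 3111 and 3220 normalized counts with TNF-α and 2862, 2731 and 2555 with EMO. The drop was small and free of overlap, with a log2 fold change of -0.25 (SE 0.06, adjusted p = 0.0039). Srsf5 (chr6:104611026-104615302) went the other way. It had 2636, 2776 and 2897 normalized counts with TNF-α and 3401, 3601 and 3718 with EMO. All 3 EMO libraries were above the highest TNF-α library, and the log2 fold change was 0.37 (SE 0.06, adjusted p = 2.4e-04). Srsf11, whose product contacts both U2AF and the U1 particle, passed narrowly at 0.14 (SE 0.06, adjusted p = 0.042). Its normalized counts of 1887, 1811 and 1783 with TNF-α and 2087, 2012 and 1962 with EMO did not overlap. The call on Srsf11 was lost when library totals replaced TMM (log2 fold change 0.03, adjusted p = 0.64). Under DESeq2, its size factors and upper-quartile factors it did not pass either (adjusted p = 0.083, 0.055 and 0.13). The same held with no filter on low counts and with at least 50 counts in 3 libraries (0.074 and 0.065). Among single libraries, the call was lost when any but EMO replicate 3 was left out (adjusted p from 0.057 to 0.13).

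**Figure D2:**
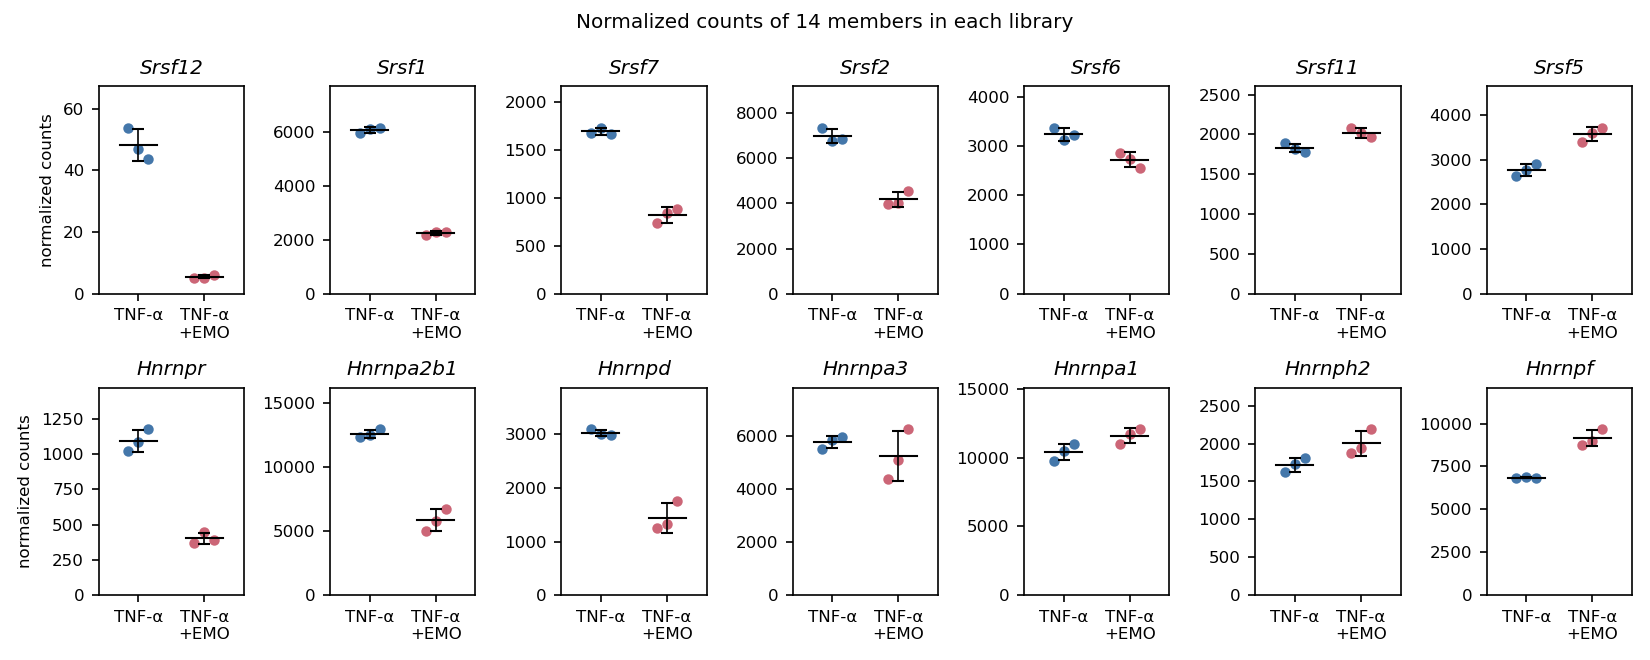
Normalized counts (y axis, from 0) of 14 SR and hnRNP genes in each library, with blue points for TNF-α, red points for TNF-α+EMO, a horizontal line at the mean of 3 libraries and bars of ±1 SD. Srsf1 dropped from about 6079 to 2242 and Hnrnpa2b1 from about 12628 to 5848, while Srsf5 and Hnrnpf were higher with EMO and the groups overlapped for Hnrnpa3.

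Among the hnRNP genes, the lowest fold changes were those of Hnrnpr, Hnrnpa2b1 and Hnrnpd. Hnrnpa2b1 (ENSRNOG00000011175, chr4:81237496-81241282, minus strand) encodes a reader of RNA sorting signals and of silencer sequences, and was the most abundant hnRNP gene per length with TNF-α. Its normalized counts were 12390, 12495 and 12997 with TNF-α and 5036, 5775 and 6733 with EMO. The EMO libraries varied more than the TNF-α libraries but stayed well below them, and the log2 fold change was -1.11 (SE 0.09, adjusted p = 9.5e-07). Hnrnpr, whose protein binds mRNA in axons and the nucleus, had 1019, 1083 and 1178 normalized counts with TNF-α and 372, 446 and 390 with EMO. Its log2 fold change of -1.44 (SE 0.10, adjusted p = 9.9e-08) was as large as that of Srsf1. Hnrnpd, also called AUF1, binds AU-rich elements in cytokine and growth factor mRNAs and speeds their decay. It went from 3103, 3001 and 2990 normalized counts to 1244, 1321 and 1762, a log2 fold change of -1.07 (SE 0.12, adjusted p = 1.7e-05) without overlap.

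A further 7 hnRNP genes fell by less than 2-fold. Hnrnpl, which reads CA-rich repeats, had a log2 fold change of -0.87, and Hnrnpm, a regulator of the exons that differ between epithelial and mesenchymal cells, one of -0.65. Hnrnpu, a scaffold protein that also binds chromatin, had -0.42, and its relative Hnrnpul1 had -0.37. Hnrnpll, the hnRNP L relative that controls Ptprc splicing in lymphocytes, had -0.38, although Ptprc itself had at most 3 counts in any library. Hnrnph1, a reader of G-runs, had -0.25 and Hnrnpk, a binder of C-rich RNA, -0.19 (adjusted p = 0.0069). The last rested on tight groups, with 12704 ± 292 normalized counts in the TNF-α group and 11162 ± 265 in the TNF-α+EMO group (mean ± SD, n = 3 each).

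The hnRNP genes that rose were Hnrnpf, Hnrnph2 and Hnrnpa1. Hnrnpf, which binds G-runs as Hnrnph1 does, had 6807, 6908 and 6855 normalized counts with TNF-α and 8764, 9002 and 9688 with EMO. All EMO libraries were higher, with a log2 fold change of 0.42 (SE 0.06, adjusted p = 4.8e-05). Hnrnph2 had a log2 fold change of 0.22 (SE 0.08, adjusted p = 0.021). Hnrnpa1, the best studied splicing repressor of the family, had 9770, 10525 and 10985 normalized counts with TNF-α and 11015, 11741 and 12097 with EMO. The highest TNF-α library and the lowest EMO library were almost equal, and the log2 fold change was 0.16 (SE 0.06, adjusted p = 0.041). With library totals in place of TMM the values of Hnrnph2 and Hnrnpa1 were 0.10 and 0.04, and neither passed (adjusted p = 0.23 and 0.57). Leaving out TNF-α replicate 1 or 2 also ended the call on Hnrnph2 (adjusted p = 0.094 and 0.056), and leaving out either of these or EMO replicate 2 or 3 ended that on Hnrnpa1 (adjusted p from 0.062 to 0.18). Under DESeq2, its size factors and upper-quartile factors, with no filter and with the 50-count filter, Hnrnpa1 did not pass either (adjusted p from 0.052 to 0.13), nor did Hnrnph2 under upper-quartile factors (0.054). Srsf5 and Hnrnpf passed under each of these scalings and filters and with any single library left out, but neither rose by 2-fold.

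Of the 6 hnRNP genes that did not pass, 3 were measured with narrow intervals. Hnrnpdl, the relative of Hnrnpd, had a log2 fold change of 0.02 (95% interval -0.16 to 0.20), and Hnrnpul2 had 0.01 (-0.18 to 0.21). Hnrnpa3, the third A-type gene, had 5508, 5833 and 5966 normalized counts with TNF-α and 4375, 5086 and 6257 with EMO. EMO replicate 3 was above all TNF-α libraries and the other 2 were below them. The log2 fold change was -0.14 (-0.40 to 0.12, adjusted p = 0.29), and without EMO replicate 3 it was -0.29 and passed (adjusted p = 4.7e-04).

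The other 3, Hnrnpc, Hnrnpab and Hnrnph3, varied widely between replicates. Hnrnpc, which binds U-tracts and measures the length of nascent RNA, had 179, 148 and 390 normalized counts with TNF-α and 580, 600 and 374 with EMO. TNF-α replicate 3 and EMO replicate 3 overlapped, and the log2 fold change of 1.12 did not pass (SE 0.44, adjusted p = 0.067). Without TNF-α replicate 3 it was 1.66 and passed (adjusted p = 1.8e-04). Hnrnpab, a transcription and RNA-binding factor, had 118, 154 and 1399 normalized counts with TNF-α and 129, 173 and 2676 with EMO. Replicate 3 was the high library in both groups, and the log2 fold change of 0.83 had an interval of -3.85 to 5.51. Without EMO replicate 3 the value was -1.89. Hnrnph3 had 174, 300 and 124 normalized counts with TNF-α and 188, 177 and 223 with EMO, with a log2 fold change of -0.02 (-0.71 to 0.66). Together with Srsf9, these were the only members with more than 1.5-fold between the highest and the lowest library of a group. Among all genes tested with a mean of at least 100 normalized counts, 11.3% had such a spread.

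**Figure D3:**
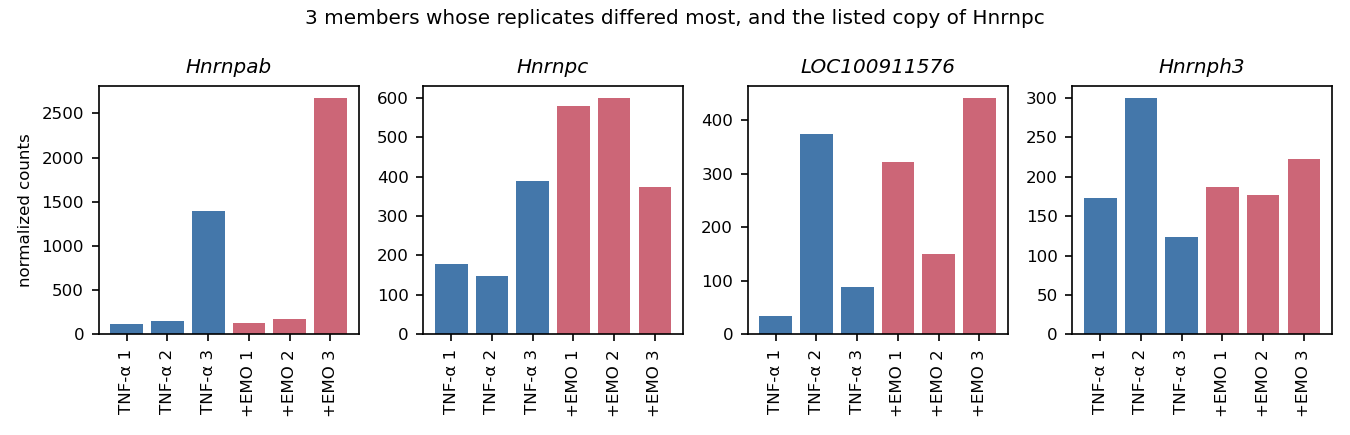
Normalized counts (y axis, from 0) of Hnrnpab, Hnrnpc, the listed copy of Hnrnpc (LOC100911576) and Hnrnph3, with 1 bar per library and no error bars, blue for TNF-α and red for TNF-α+EMO. Replicate 3 of both groups stands far above the rest for Hnrnpab (1399 and 2676), and Hnrnpc and its copy are high in different libraries of a group.

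Some members have likely copies listed as separate genes, whose sequences were not compared here. A counting program could split reads among such copies. For Hnrnpc, the copy LOC100911576 had 35, 384 and 90 raw counts with TNF-α and 312, 147 and 434 with EMO, against 182, 152 and 400 and 562, 586 and 367 for Hnrnpc itself. The sums of the pair were 217, 536 and 490 with TNF-α and 874, 733 and 801 with EMO, so the groups no longer overlapped. The summed log2 fold change was 1.02 (SE 0.34, adjusted p = 0.038). Summing with the listed copies left Hnrnpk at -0.19, Hnrnpa3 at -0.14 and Hnrnpab at 0.83, and moved Hnrnpr from -1.44 to -1.26. The listed copy of Hnrnpab had at most 1 count in any library, and whether its reads went to other entries was not tested. The value of Hnrnpc is uncertain, since its call in the main test depended on whether the copy was added. With the copy added, the TNF-α libraries still ran from 213 to 523 normalized counts. Whether reads were split between the pair was not tested. The value of Hnrnpab is uncertain because its replicates differed widely. Genes listed at overlapping positions had few counts, at most 59 for Mir7a1 in Hnrnpk, 45 for LOC103690164 in Hnrnpab, 1 for a U6 gene in Hnrnpll and 0 for LOC100910755 in Hnrnph3. The strand setting of the counting is not stated, so reads of such pairs cannot be told apart. Hnrnpa0, an A-type gene linked to inflammatory mRNAs, is listed only under the name LOC681410 and was therefore no member. It was looked up after the values of the members were seen. It had 6916, 5026 and 5473 normalized counts with TNF-α and 2311, 2506 and 3548 with EMO, a log2 fold change of -1.06 (SE 0.21, adjusted p = 0.0039).

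EMO replicate 3 stood apart from its group. Per gene, the chi-square value between it and the other EMO libraries was 23.5 and 15.1, against 4.62 to 6.27 for the other pairs of replicates. It was the highest EMO library for 14 of 19 hnRNP genes and 7 of 11 SR genes, and for 37.7% of all genes tested. Without it the family medians were -0.81 for SR and -0.29 for hnRNP, with 9 SR genes and 11 hnRNP genes lower, and 2 of each higher.

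The promoters of 4 abundant members, 3 that fell by more than 2-fold and 1 that rose, are printed here so that what they hold can be read beside the changes. RefSeq gave 34 promoters for 30 of the 31 members on the GRCr8 build (Hnrnpll was not matched), a different build from that of the gene positions above. The 250 bases before the start were searched on both strands. The letters sought were CCAAT, the box bound by NF-Y, which reads ATTGG on the other strand. GGGCGG is the box of the Sp factors, which reads CCGCCC on the other strand. CCGGAAG is bound by ETS factors, and reads CTTCCGG on the other strand. TATAAA is the element of TBP, the E-box CACGTG is read by MYC and USF, and TGACGTCA is the cAMP response element. Matches on either strand are in capitals. In Srsf7 the first Sp box and the ETS letters overlap. The promoters are those of Srsf1 (chr10:73336248-73336497, plus strand) and Hnrnpa2b1 (chr4:81875887-81876136, minus strand), which fell, and of Srsf7 (chr6:20563802-20564051, plus strand), which fell, and Srsf5 (chr6:106336506-106336755, plus strand), which rose.
Srsf1: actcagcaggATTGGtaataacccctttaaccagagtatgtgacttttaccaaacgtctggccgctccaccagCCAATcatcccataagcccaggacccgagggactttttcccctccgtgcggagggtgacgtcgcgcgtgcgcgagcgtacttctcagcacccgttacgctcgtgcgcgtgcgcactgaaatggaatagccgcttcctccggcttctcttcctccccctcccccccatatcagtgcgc
Hnrnpa2b1: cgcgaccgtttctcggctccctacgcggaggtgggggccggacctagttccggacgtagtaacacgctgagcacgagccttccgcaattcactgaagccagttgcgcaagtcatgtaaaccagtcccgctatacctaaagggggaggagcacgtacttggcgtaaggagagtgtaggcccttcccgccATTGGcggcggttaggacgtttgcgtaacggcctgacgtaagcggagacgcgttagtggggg
Srsf7: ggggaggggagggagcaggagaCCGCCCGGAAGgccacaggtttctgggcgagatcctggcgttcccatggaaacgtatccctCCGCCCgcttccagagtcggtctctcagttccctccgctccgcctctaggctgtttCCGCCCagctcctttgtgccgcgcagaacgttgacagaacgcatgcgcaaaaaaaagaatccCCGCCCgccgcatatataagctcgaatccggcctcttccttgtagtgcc
Srsf5: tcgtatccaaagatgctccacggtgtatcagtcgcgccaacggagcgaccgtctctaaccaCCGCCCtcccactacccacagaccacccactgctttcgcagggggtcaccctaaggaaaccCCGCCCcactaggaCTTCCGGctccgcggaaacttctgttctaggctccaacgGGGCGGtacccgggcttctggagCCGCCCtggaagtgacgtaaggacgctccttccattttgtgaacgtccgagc

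Srsf7 and Srsf5 each held 4 Sp boxes and 1 set of ETS letters, and their genes moved in opposite directions. Srsf1 held 2 CCAAT boxes and Hnrnpa2b1 held 1. As a class, the member promoters were GC-rich, with a median of 62.2% G and C against 51.2% over 33469 promoters in all. GGGCGG was found in 24 of 34 member promoters (70.6%) and in 30.5% of all promoters. CCAAT was in 21 (61.8%, against 34.0%), CCGGAAG in 8 (23.5%, against 7.27%), TATAAA in 6 (17.6%, against 12.9%) and CACGTG in 5 (14.7%, against 5.59%). TGACGTCA was in 0 member promoters and in 1.59% of all. Counted by gene, CCAAT was present for 9 of the 18 matched genes that fell and 3 of the 5 that rose, and GGGCGG for 13 of 18 and 5 of 5. CCGGAAG was present for 3 of 18 and 3 of 5. A match describes the letters only, and these counts are too small for a comparison of directions.

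Summed over their members, both families were lower with EMO. The SR genes together had 30535 ± 482 normalized counts with TNF-α and 20079 ± 498 with EMO (mean ± SD, n = 3 each). For the hnRNP genes the sums were 94072 ± 2485 and 78300 ± 6131. In counts the SR sum was thus 0.658 times and the hnRNP sum 0.832 times its level with TNF-α. To compare genes with each other, normalized counts were divided by the deposited gene length in kilobases. Per kilobase the sums lay closer together, at 0.729 times for SR and 0.795 times for hnRNP. On that scale the SR share of the summed level of both families was 22.5%, 21.7% and 21.2% with TNF-α alone and 21.2%, 20.6% and 19.5% with EMO. The lowest TNF-α library and the highest EMO library touched, and the means were 21.8% ± 0.659 and 20.4% ± 0.867 (SD, n = 3). In counts without division by length the share went from 24.5% ± 0.668 to 20.4% ± 0.856, free of overlap. Levels per length rest on the deposited lengths, which among the tested members ran from 1051 bases for Srsf7 to 5290 bases for Srsf3.

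Within each family the order of the genes per kilobase changed. Srsf2 led the SR genes with TNF-α at 27.4% ± 0.882 of their summed level per kilobase, and Srsf5 was next at 17.5% ± 1.00. With EMO, Srsf5 led at 30.9% ± 0.597 and Srsf2 had 22.4% ± 0.716 (SD, n = 3 each). This change of leader rests on the division by length. In normalized counts Srsf2 stayed above Srsf5 with EMO, with means of 4181 and 3573. The shares of Srsf1 and Srsf7 dropped from 8.90% to 4.50% and from 12.0% to 7.95%, and that of Srsf11 grew from 5.17% to 7.86%. Among the hnRNP genes, Hnrnpa2b1 led with TNF-α at 24.7% ± 0.143, with Hnrnpa1 second at 11.1% ± 0.368. With EMO, Hnrnpa1 had 15.7% ± 0.871 and Hnrnpa2b1 14.3% ± 0.741, and these neighbours did not differ beyond their spread. Hnrnpf grew from 6.08% to 10.2% of the hnRNP sum. A share can grow without a higher level, as for Hnrnpa3, which had 10.5% ± 0.209 with TNF-α and 12.0% ± 1.00 with EMO.

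**Figure D4:**
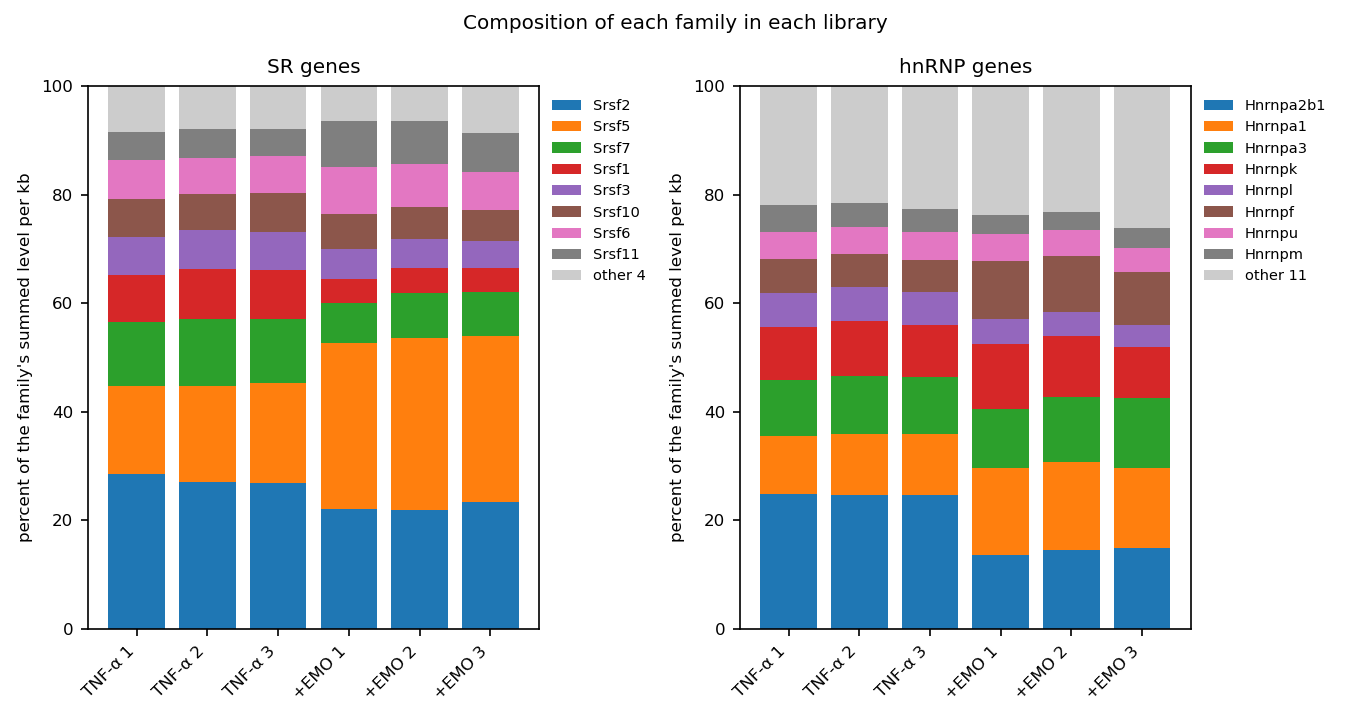
Share of each gene in the summed level per kilobase of its family (y axis, percent) in each of the 6 libraries (x axis), SR genes on the left and hnRNP genes on the right. Srsf5 widens from 17.5% to 30.9% of the SR sum and Hnrnpa2b1 narrows from 24.7% to 14.3% of the hnRNP sum, in every EMO library alike.

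Ratios were taken for chosen pairs of relatives, not for every pair. Per kilobase, the ratio of Hnrnpa1 to Hnrnpa2b1 was 0.431, 0.461 and 0.462 with TNF-α alone and 1.20, 1.11 and 0.982 with EMO. The EMO libraries were all higher, so the more abundant gene of the pair changed in 2 of 3. The ratio of Hnrnpdl to Hnrnpd, which lie close together on chromosome 14, was 0.643 ± 0.0289 with TNF-α and 1.39 ± 0.142 with EMO (SD, n = 3 each). Hnrnpf to Hnrnph1 went from 1.68 ± 0.0593 to 2.67 ± 0.119. Srsf5 to Srsf6 went from 2.55 ± 0.198 to 3.93 ± 0.398, and Srsf4 to Srsf5 from 0.206 ± 0.0239 to 0.0986 ± 0.00623. Srsf3 to Srsf7 overlapped between the groups, at 0.595 ± 0.0179 and 0.665 ± 0.0806. Srsf1 and Hnrnpa1 are the textbook antagonists in the choice between competing 5′ splice sites. Their ratio, a pair added after the values were seen, was 0.233, 0.223 and 0.215 with TNF-α and 0.0753, 0.0743 and 0.0723 with EMO. The ratios describe mRNA and carry no test, and neither protein nor splice site use was measured.

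**Figure D5:**
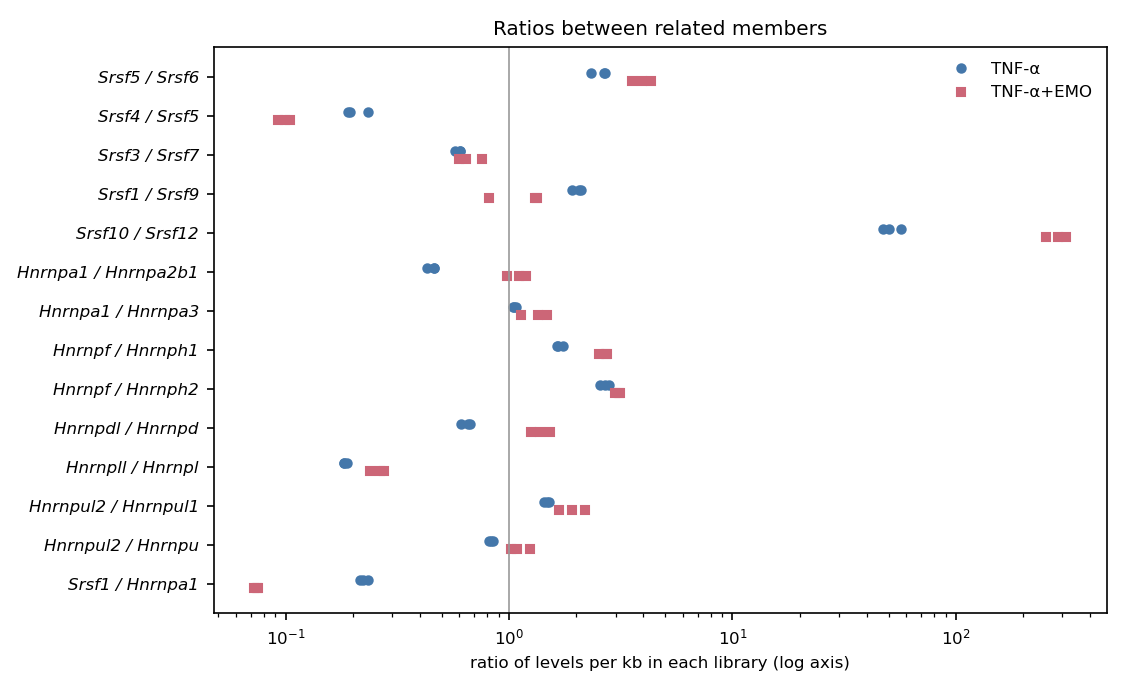
Ratios between related SR or hnRNP genes in levels per kilobase (axis on a log scale), with 1 point per library, blue for TNF-α and red for TNF-α+EMO. The Hnrnpa1 to Hnrnpa2b1 ratio lies at 0.431 to 0.462 with TNF-α and 0.982 to 1.20 with EMO, and the Srsf1 to Hnrnpa1 ratio falls from 0.224 to 0.0740 on average.

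By rank, the change of a member had little relation to how abundant or how long it was. Over the 30 tested members, which share the same 6 libraries, Spearman's rho between the log2 fold change and the mean level per kilobase was 0.11. Pearson's r with the log2 of that level was 0.36. With gene length rho was -0.13, and r with the log2 of the length was -0.17.

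Other genes of the splicing pathway give the setting of these changes. Beside the counts of each list stand the shares of all genes tested, 39.4% higher, 41.4% lower and 80.9% in either direction. Of 11 listed kinases, phosphatase subunits and importers that act on SR proteins, 9 were tested, 5 were higher, 2 lower, and the median log2 fold change was 0.20. Clk3 and Clk4, which phosphorylate SR proteins in the nucleus, rose by 1.30 and 0.98 on the log2 scale (adjusted p = 2.5e-08 and 6.0e-06). Srpk2, which phosphorylates them in the cytoplasm, had 2149, 2068 and 2004 counts with TNF-α and 998, 940 and 919 with EMO, and a log2 fold change of -1.05. Ppp1r8, an inhibitor of a nuclear phosphatase, had -0.29. Among 24 SR-related genes, 21 were tested, 4 were higher and 8 lower, with a median of -0.03. The lowest were the splicing coactivator Srrm1 (-1.05) and Scaf8 (-0.69), which binds the polymerase tail, and the highest were Rsrc2 (0.52) and the U1-associated Luc7l (0.49).

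hnRNP proteins whose genes carry other names gave 9 tested of 10, 2 higher and 4 lower, with a median of -0.10. Rbmx, which encodes hnRNP G, had a log2 fold change of -1.42, while the poly(C) binder Pcbp2 had 0.34 and Matr3 0.21. The regulators that set tissue- or signal-specific splicing had the lowest median of the lists, -0.43, with 13 lower and 4 higher among 24 tested of 38. Rbm20, which controls titin splicing in muscle, fell by 3.18 on the log2 scale, and Mbnl1, a regulator of splicing in differentiation, by 2.53. Rbm38 rose by 1.62, and Rbm47, at 20, 11 and 16 counts with EMO, was at 0 in all 3 libraries without it.

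In the lists of spliceosome particles, Sm and LSm proteins, and exon junction and decay genes, the medians lay near or above 0. The U1 and U2 particles and U2AF, which mark the splice sites, had 10 of 23 genes higher and 8 lower, with a median of 0.13. Snrpa and Sf3b3 had the lowest values (-1.65 and -0.80), Sf3b5 and U2af1l4 the highest (1.63 and 1.57). The Sm and LSm ring proteins had 5 higher and 5 lower of 15 tested, with Lsm2 at -0.92, Lsm6 at -0.56, Lsm4 at 0.99, Lsm1 at 0.80 and a median of -0.03. The tri-snRNP and the Prp19 complex, which activate the spliceosome, had 21 of 35 tested entries higher and 6 lower, with a median of 0.32. There Prpf19 and Prpf8, the catalytic core protein, had -0.76 and -0.65, and Syf2 and Cwc15 had 1.55 and 1.19. All 17 genes of the exon junction complex and nonsense-mediated decay passed, 12 higher and 5 lower, with a median of 0.42. Eif4a3, the anchor of the exon junction complex, and Upf3a had 0.74 and 0.89, whereas Smg6, the endonuclease of the decay pathway, and Upf1, its helicase, had -1.78 and -0.82. The 173 genes of these 8 lists gave 153 tested entries (Crnkl1 has 2), of which 63 were higher and 51 lower, with a median of 0.06. Of these entries 15.7% differed by more than 2-fold, against 47.3% of all genes tested. The difference between these lists and the SR genes was not tested.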

How the data were processed

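RNA-seq was measured in 6 libraries of rat RA-FLS, 3 per group, grouped by the sample labels. The authors selected poly(A) mRNA, sequenced paired ends and aligned the cleaned reads with Hisat2, and their processing notes name the Rnor_6.0 build. The counting program, annotation version and strand setting are not given in the sources used here. The authors deposited raw counts per gene, which were used for every result, and a gene length in bases, used for levels per kilobase. The deposited FPKM values were not used. The authors' own comparison, not used, holds group mean scores (size-factor scaled counts), a log2 fold change and a raw and adjusted p-value for each gene.

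The 13614 of 34156 genes that reached 10 counts in 3 or more libraries were fitted with edgeR 4.0.16 in R 4.3.3 (TMM factors, robust quasi-likelihood test, Benjamini-Hochberg adjustment over all genes tested). Every adjusted p comes from this test unless another is named, with a threshold of 0.05. Normalized counts were obtained by dividing counts by TMM-adjusted library sizes and multiplying by their mean. Fold changes are TNF-α+EMO over TNF-α. Intervals are at 95% confidence. DESeq2 1.42.0, limma-voom (limma 3.58.1), other scalings, filters and each left-out library were alternatives. Shares and ratios carry no test, since 3 against 3 libraries cannot go below 0.1 in a two-sided exact permutation test.

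The members and lists were chosen with earlier results of these data known. All members were named. Those with the 3 highest and 3 lowest fold changes and the 3 highest levels per kilobase in each family were given per library, and from each other list the 2 highest and 2 lowest that passed were named, except 1 gene that is not reported here. Nothing in the labels says that replicates came from separate cultures or animals, so p-values measure the spread between these samples. The methods call them biological replicates. Depth was 16813322 to 17794455 counts per library.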

Additional observations from a re-analysis of the deposited data

How the results depend on the processing

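Of 454 values of single members under the alternatives, 403 kept their direction and their side of the threshold, and 20 of the 30 tested members had no change at all. Direction changed only for 4 genes that never passed in the main test. Hnrnpul2 was -0.10 with library totals, -0.028 with upper-quartile factors and -0.0049 with at least 50 counts in 3 libraries. Hnrnpdl was -0.093 with library totals and -0.021 with upper-quartile factors. Hnrnph3 was 0.067 with limma-voom. With 1 library left out in turn, Hnrnpul2 ran from -0.11 to 0.087, Hnrnpdl from -0.069 to 0.070, Hnrnph3 from -0.27 to 0.40 and Hnrnpab from -1.89 to 2.87. Library totals moved the median of all genes to -0.12, and the SR and hnRNP medians to -0.80 and -0.30, so they kept their distance to it. The cause of these moves was not tested.

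The number of SR genes higher was 1 under DESeq2, its size factors, library totals, upper-quartile factors, no filter, the 50-count filter and an adjusted p below 0.01. That of hnRNP genes higher was 1 under library totals, upper-quartile factors and p below 0.01. Past 2-fold, 3 SR and 3 hnRNP genes were lower and 0 of either higher, the other lists had 12 higher and 12 lower, and all genes 2659 higher. Hnrnpc passed under DESeq2 (1.10, adjusted p = 0.027) and limma-voom (1.22, 0.0068). Leaving out Hnrnpab, Hnrnpc and Hnrnph3, chosen after seeing the data, gave a hnRNP median of -0.31 and a difference between the medians, SR minus hnRNP, of -0.38 (main -0.50). Sums with listed copies, a fit without mitochondrial genes and the share in counts were also added after seeing the data. Without mitochondrial genes the SR and hnRNP medians were -0.69 and -0.19, as in the main fit. The SR share fell by 4.06 percentage points without division by length, and with it the share fell by 1.40 points.

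With 1 library left out in turn, the SR median ran from -0.81 to -0.64, the hnRNP median from -0.29 to -0.18, their difference from -0.55 to -0.44 and the SR share difference from -1.79 to -0.93 points. SR genes higher were 1 to 2 and lower 8 to 9. hnRNP genes higher were 1 to 4 and lower 10 to 11. The other lists had 57 to 66 higher and 47 to 55 lower.

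The groups share replicate numbers, but same-numbered libraries did not deviate together (r = 0.02, -0.0038 and 0.06), so the numbers were not taken as pairs. With a replicate block, 1 SR gene and 4 hnRNP genes were higher, since Srsf11 missed the threshold (adjusted p = 0.071) and Hnrnpab passed (log2 fold change 0.50, adjusted p = 0.023), and Hnrnph3 was 0.055. Counts per gene limit all values to whole genes, and Srsf12 rests on at most 6 counts per EMO library.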
